A study of Homo sapiens with 8 samples.

Results

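Fatty acid synthesis, desaturation and triglyceride storage are described here by 41 genes of HepG2 cells, out of 38032 gene identifiers listed in the files. The genes were taken by symbol from a list that was chosen with earlier results of these data known. They were placed in 9 groups by their role, from acetyl-CoA supply to lipolysis. Of the 41 genes, 39 had at least 10 counts in at least 2 libraries and were tested among 13943 genes, and the other 2, THRSP and SCD5, did not pass. The tested members had at least 13 counts in every library.

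HepG2 cells come from a human hepatocellular carcinoma and serve widely as a hepatocyte model. Wild-type HepG2 cells were cultured for 8 days either as flat monolayers on standard culture-ware (2D-primed, 4 libraries) or as layers on Alvetex Strata, a porous polystyrene scaffold (3D-primed, 4 libraries). Both groups received the same serum-supplemented medium, no drug and no genetic change, and all cells were released with trypsin before RNA was extracted. The scaffold inserts were seeded more densely than the flat wells, so surface and seeding density cannot be told apart. The comparison asks how growth on the scaffold changes expression in a cell line that represents 1 tumour. Because no source states that the replicates came from separate cultures, p-values measure the spread between these libraries, which may be technical.

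In liver cells, citrate exported from mitochondria is split to acetyl-CoA, which is carboxylated and then built into palmitate by fatty acid synthase. Elongases and desaturases lengthen the chain and add double bonds, acyl-CoA synthetases activate it, and a series of acyltransferases and phosphatases joins the chains to glycerol to form triglyceride, which is stored in droplets coated by perilipins or exported in lipoproteins. The transcription factors SREBP-1 and ChREBP drive many of these genes, in response to insulin and sterols and to glucose, respectively.

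The libraries held 21599630 to 27844077 counts. CPM are counts scaled to a common library size of 1e+06 by the TMM method, except in sums of markers, which are scaled by total counts only. Hepatocyte markers (8 of 8 above the filter) summed to 67740 to 73388 CPM in 2D-primed libraries and to 98370 to 107779 in 3D-primed libraries. Of these 8 genes 6 were called higher, led by AFP (log2 fold change 1.11) and TTR (0.81), and 2 lower, APOB (-0.25) and SERPINA1 (-0.14). Markers of other cell types had summed ranges of 10.8 to 12.0 and 15.5 to 18.0 CPM for 6 fibroblast or stellate genes, 5.54 to 7.68 and 4.20 to 5.71 CPM for 5 endothelial genes, 74.1 to 76.8 and 35.0 to 45.4 CPM for 5 leukocyte genes, and 8.63 to 9.31 and 8.53 to 10.4 CPM for 6 adipocyte genes in 2D-primed and 3D-primed libraries. Of the leukocyte genes, CD68, a lysosomal gene of macrophages, averaged 72.7 TMM-scaled CPM with 2D priming, against 34.4 with 3D priming (-1.08 on the log2 scale). In contrast, PTPRC had 0 to 2 counts and CD3E 0 counts. Of the 3 leukocyte genes tested, 1 was called higher (log2 fold change 0.78), 1 lower (CD68) and 1 was not called. The adipocyte markers FABP4 and LPL were at 0 in all 8 libraries. Of the 2 adipocyte markers tested, PLIN1 was called higher (1.15, with 6 to 24 counts per library and overlapping groups). The other, CIDEC, was not called. The part of these markers in the results was not tested. For the members, the library 2D-primed replicate 3 stood apart within its group. It had the lowest 2D-primed value in 24 of the 39 tested members, and in 22 of the 28 called higher in 3D-primed cells, against 26.0% of all genes tested. Over all genes tested, 2D-primed replicate 1 was the lowest of its group most often (31.0%). Among the 7 members called lower, 2D-primed replicate 3 was the highest of its group in 4, against 28.8% of all genes. In 5 of the 7, 3D-primed replicate 3 was the highest of its group, against 28.4% of all genes. The part of these libraries in the results is given by leaving them out.

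A gene was called at an adjusted p below 0.05 in edgeR's quasi-likelihood test, with p adjusted over all genes tested, and log2 fold changes are 3D-primed over 2D-primed. Of the 39 members tested, 28 were higher and 7 were lower in 3D-primed cells, and 4 were not called. Calls were frequent across the transcriptome, at 63.9% of all genes tested, with 32.4% higher and 31.6% lower. The members called higher were 71.8% of those tested and the members called lower 17.9%. In 17 members the call came with a change of at least 2-fold, which held for 11.9% of all genes. The values of the 4 libraries of one group all lay outside those of the other in 32 members (82.1%), against 59.8% of all genes. The median log2 fold change was 0.82 over the members tested and 0.01 over all genes. Because the list was chosen with earlier results of these data known, these differences from all genes are description and were not tested. Leaving out 2D-primed replicate 3 gave 27 higher and 6 lower with a median of 0.79. RNA of whole cultures was measured, in which fewer cells of a kind and less RNA per cell cannot be told apart.

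**Figure D1:**
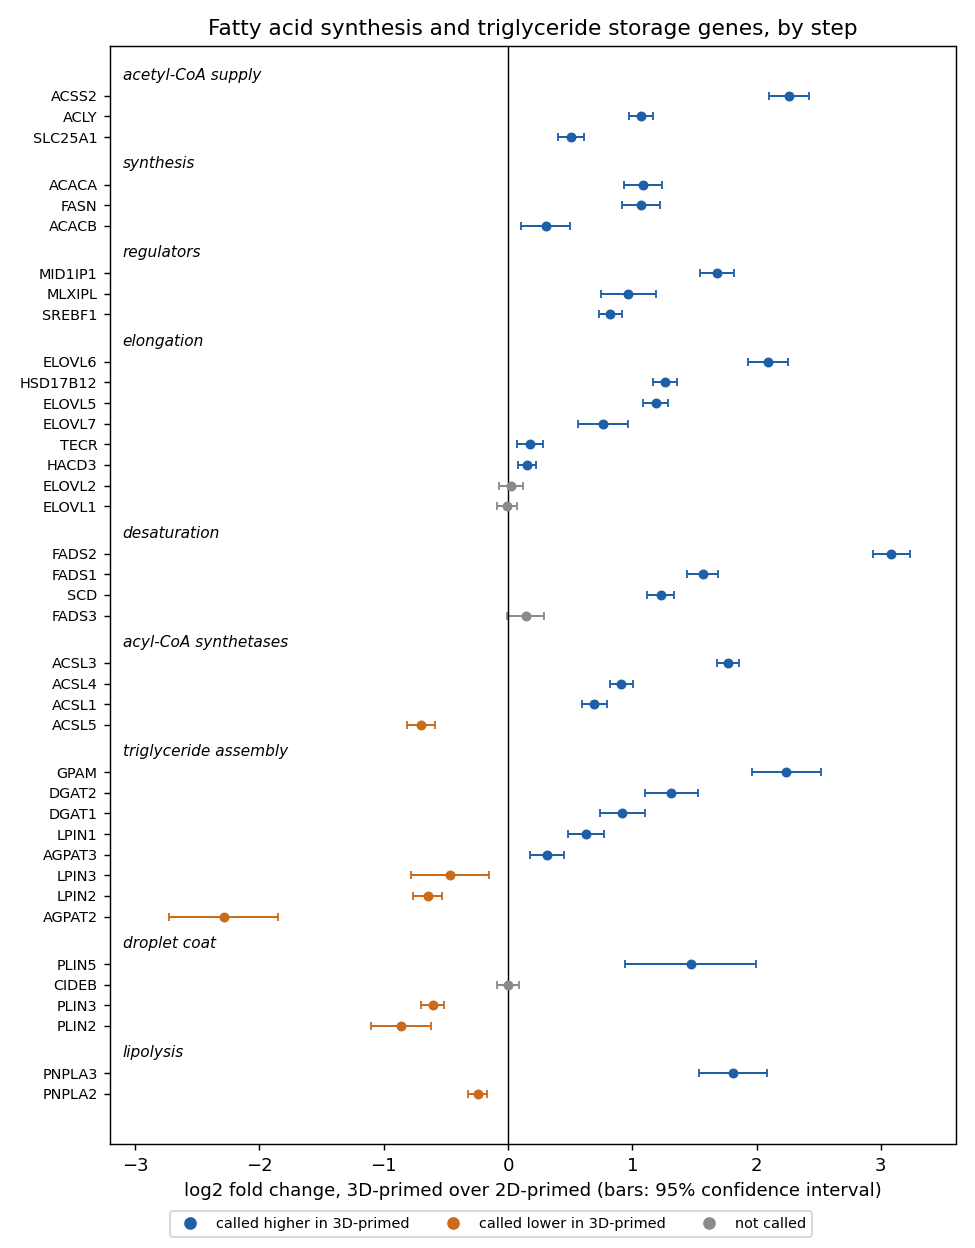
Log2 fold change (3D-primed over 2D-primed, x axis) of the 39 tested members by step, with bars for the 95% confidence interval, coloured by call. The bars use the SE and a normal approximation, so they are narrower than intervals from the quasi-likelihood test itself. All called members of the acetyl-CoA supply, synthesis, regulator, elongation and desaturation steps lie to the right of 0, and the 7 members called lower lie in the acyl-CoA synthetase, triglyceride assembly, droplet coat and lipolysis steps.

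Promoter sequences show what the members carry near their start sites. RefSeq promoters (GRCh38.p14, 250 bases before to 50 after a start site) were matched for 35 of the 41 members. The 6 members without an entry were FASN, HSD17B12, LPIN3, DGAT1, DGAT2 and PNPLA3. Each promoter was searched on both strands for 4 sets of letters. These were tcacnccac, a form of the sterol regulatory element that SREBP binds, ccaat, the box bound by NF-Y, cacgtg, an E-box, and gggcgg, the GC box bound by Sp factors. The first was found in promoters of 3 members (8.57%), of 1.39% of all genes in the promoter table and of 1.45% of the tested genes with a promoter, and in none of the 16 cholesterol synthesis genes with a promoter. The stretches around these 3 matches follow, with the tcacnccac match, and any ccaat match in the stretch, in capitals on the gene's strand, where they read as their reverse complement.
MID1IP1 (chrX:38801374-38801447, plus strand): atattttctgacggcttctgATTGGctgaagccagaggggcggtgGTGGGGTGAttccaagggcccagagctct
ACSL1 (chr4:184805744-184805803, minus strand, 1 of 5 promoters): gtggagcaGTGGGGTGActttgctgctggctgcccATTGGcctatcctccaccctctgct
PNPLA2 (chr11:818741-818789, plus strand): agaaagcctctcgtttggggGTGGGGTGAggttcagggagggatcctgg
None of the 3 matches shares bases with a match to another of the searched motifs. MID1IP1 and ACSL1 were higher and PNPLA2 was lower in 3D-primed cells, so the 3 members with these letters did not move in 1 direction.

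The ccaat letters were more frequent, in 22 of the 35 members (62.9%), against 39.7% of all genes in the table and 43.1% of the tested genes with a promoter. They also occurred in 13 of the 16 cholesterol synthesis genes (81.2%). Members with them that were higher were SLC25A1, ACLY, ACSS2, ACACA, ACACB, MID1IP1, ELOVL5, HACD3, TECR, SCD, FADS2, ACSL1, ACSL3, GPAM, AGPAT3 and PLIN5. ELOVL1, CIDEB and FADS3, also with them, were not called, PLIN3 was lower, and THRSP and SCD5 were not tested. Among members without them, SREBF1, MLXIPL, ELOVL6, ELOVL7, FADS1, ACSL4 and LPIN1 were higher and ELOVL2 was not called. ACSL5, AGPAT2, LPIN2, PLIN2 and PNPLA2, also without them, were lower. Whether the letters go with the direction of change was not tested. The stretches of 4 abundant members that were higher in 3D-primed cells are shown because 3 of them hold a pair of such boxes, in capitals, reading ATTGG where the match is on the opposite strand.
SCD (chr10:100346984-100347071, plus strand): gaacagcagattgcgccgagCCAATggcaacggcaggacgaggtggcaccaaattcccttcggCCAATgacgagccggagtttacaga
ACLY (chr17:41919023-41919107, minus strand): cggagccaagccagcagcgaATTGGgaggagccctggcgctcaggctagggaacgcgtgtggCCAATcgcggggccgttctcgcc
ELOVL5 (chr6:53348994-53349092, minus strand): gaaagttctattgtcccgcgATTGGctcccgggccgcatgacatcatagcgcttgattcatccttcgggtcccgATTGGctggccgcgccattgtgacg
ACSL3 (chr2:222860941-222860985, plus strand): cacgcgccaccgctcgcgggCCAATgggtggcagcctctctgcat
The E-box letters were in 3 members (8.57%, namely ELOVL5, PLIN2 and LPIN2), against 8.77% of all genes and 12.4% of the tested genes with a promoter, and the GC box letters in 31 (88.6%), against 48.3% of all genes and 76.2% of the tested genes with a promoter. A match describes letters in the window and no binding was measured.

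The 3 genes of acetyl-CoA supply were all upregulated in 3D-primed cells. In this and all following sentences the values are CPM of replicates 1, 2, 3 and 4 in that order. ACSS2 (ENSG00000131069), which makes acetyl-CoA from acetate, stood at 43.0, 44.4, 34.3 and 41.4 in 2D-primed and at 209.9, 184, 204 and 182 in 3D-primed libraries. Every 3D-primed value was thus more than 4 times every 2D-primed value, and the log2 fold change was 2.26 (SE 0.0823, edgeR adjusted p = 2.4e-08). ACLY (ENSG00000131473), the enzyme that splits cytosolic citrate, went from 216, 218, 193 and 214 to 454, 416, 454 and 443, a log2 fold change of 1.07 (SE 0.0494, edgeR adjusted p = 7.9e-08). SLC25A1 (ENSG00000100075), the mitochondrial citrate carrier, changed least of the 3, from 131, 143, 125 and 137 to 205, 187, 181 and 189, with a log2 fold change of 0.50 (SE 0.0540, edgeR adjusted p = 1.7e-05). The transcripts of the acetate route (ACSS2) and of the citrate route (ACLY and SLC25A1) did not rise by the same amount. Within each library the ratio of ACLY to ACSS2 counts fell from a mean of 5.17 to 2.27 (difference of log2 ratio -1.19, two-sided exact permutation test, p = 0.029, adjusted over 14 gene pairs p = 0.036). The value 0.029 is the smallest that 4 libraries against 4 can give, and a ratio within a library does not depend on library scaling.

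All 3 tested genes of the synthesis step were called higher, although 1 of these calls was fragile. FASN (ENSG00000169710 on chromosome 17, 82078338 to 82098294 of GRCh38), the fatty acid synthase, had 600.5, 615, 479 and 547 CPM in 2D-primed and 1152, 1087, 1231 and 1230.2 CPM in 3D-primed libraries. This is a 2.10-fold difference (log2 fold change 1.07, SE 0.0778, edgeR adjusted p = 1.2e-06). ACACA (ENSG00000278540), the acetyl-CoA carboxylase whose malonyl-CoA feeds synthesis, had 57.5, 69.6, 53.2 and 64.9 CPM against 126, 130.5, 127 and 137, a log2 fold change of 1.09 (SE 0.0766, edgeR adjusted p = 9.8e-07). For both genes the groups were far apart, with no 3D-primed library near the 2D-primed range. ACACB (ENSG00000076555), the carboxylase at the mitochondrial outer membrane whose product inhibits fatty acid import, had 13.8, 16.9, 11.9 and 14.3 CPM against 15.6, 18.0, 18.6 and 18.2. These groups overlapped, since 2D-primed replicate 2 lay above 3D-primed replicate 1. Its log2 fold change of 0.30 (SE 0.101, edgeR adjusted p = 0.022) was called in 12 of 18 alternative analyses, with adjusted p from 0.0037 to 0.11. Without 2D-primed replicate 3 it was 0.22 (edgeR, adjusted p = 0.053), and leaving out 2D-primed replicate 1 or 3D-primed replicate 2, 3 or 4 also ended the call. The ratio of ACACA to ACACB rose from 4.31 to 7.40 (exact permutation test, p = 0.029, adjusted p = 0.036).

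Of the 4 regulators, 3 were tested and all 3 were upregulated. SREBF1, the gene of SREBP-1, had 49.3, 50.7, 46.0 and 48.1 CPM in 2D-primed and 83.2, 81.3, 87.7 and 90.6 CPM in 3D-primed libraries (log2 fold change 0.82, SE 0.0473, edgeR adjusted p = 2.7e-07). MLXIPL, the gene of ChREBP, had 56.3, 52.9, 39.3 and 54.2 CPM against 93.1, 89.1, 99.4 and 115 (log2 fold change 0.97, SE 0.113, edgeR adjusted p = 3.1e-05). The spread of MLXIPL was wider, with 2D-primed replicate 3 lowest and 3D-primed replicate 4 highest, but the groups did not meet. MID1IP1, a small protein that promotes the assembly of acetyl-CoA carboxylase into active filaments, changed most. It had 18.4, 17.2, 14.4 and 16.5 CPM against 55.8, 49.9, 52.3 and 55.2 (log2 fold change 1.68, SE 0.0702, edgeR adjusted p = 4.7e-08). THRSP, a relative of MID1IP1, had 1, 1, 2 and 2 counts against 1, 2, 2 and 1 counts, too few to compare. The ratio of SREBF1 to MLXIPL was 0.97 in 2D-primed cells, against 0.87 in 3D-primed cells, a difference within the spread (-0.15 on the log2 scale, exact permutation test, p = 0.26, adjusted p = 0.28). SREBF1 also rose slightly more than SREBF2, the gene of the related factor SREBP-2, as their ratio went from 0.25 to 0.29 (difference of log2 ratio 0.23, exact permutation test, p = 0.029, adjusted p = 0.036).

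Elongation was uneven, with 6 of its 8 genes higher, none lower and 2 not called. ELOVL6, which extends palmitate-length chains to stearate, had 11.0, 10.5, 8.10 and 9.54 CPM in 2D-primed and 41.5, 40.7, 43.9 and 40.4 CPM in 3D-primed libraries, a 4.26-fold difference (log2 fold change 2.09, SE 0.0824, edgeR adjusted p = 3.6e-08). HSD17B12, the reductase that follows the condensing enzyme in each round of elongation, had 66.5, 70.9, 61.5 and 70.1 CPM against 165, 154, 164 and 163 (log2 fold change 1.26, SE 0.0506, edgeR adjusted p = 3.9e-08). Both genes thus had narrow and well separated groups. ELOVL5, a polyunsaturated chain elongase, also rose, from 56.0 ± 2.62 to 127.5 ± 7.07 CPM (SD, n = 4, log2 fold change 1.19), as did ELOVL7, from 8.49 ± 0.969 to 14.4 ± 1.60 CPM (log2 fold change 0.76). ELOVL2, the member of the step with the highest mean CPM over the 8 libraries, not corrected for length, and an elongase of very long polyunsaturated chains, had 174, 178, 169 and 174 CPM against 182, 172, 163 and 189.96, with a log2 fold change of 0.03 (SE 0.0491, edgeR adjusted p = 0.66). ELOVL1, which extends saturated very long chains, had a log2 fold change of -0.01 (SE 0.0404, edgeR adjusted p = 0.84). The groups overlapped in both. The remaining enzymes of the elongation cycle changed little, with log2 fold changes of 0.15 for the dehydratase HACD3 (edgeR, adjusted p = 0.0052) and 0.18 for the reductase TECR (edgeR, adjusted p = 0.014), and the groups of TECR overlapped. The ratio of ELOVL5 to ELOVL6 fell from 5.75 to 3.06 (exact permutation test, p = 0.029, adjusted p = 0.036).

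Desaturation held the largest increase of the 39 tested members. FADS2, the first desaturase of polyunsaturated fatty acid synthesis, had 29.1, 30.4, 24.5 and 29.8 CPM in 2D-primed and 257, 219, 243 and 246 CPM in 3D-primed libraries. The difference was 8.48-fold (log2 fold change 3.08, SE 0.0754, edgeR adjusted p = 4.7e-09), and leaving out each library in turn kept the log2 fold change between 3.02 and 3.12. FADS1, the desaturase that acts later in the same series, had 98.5, 102, 82.2 and 96.9 CPM against 283, 276, 292 and 272 (log2 fold change 1.57, SE 0.0633, edgeR adjusted p = 4.1e-08). FADS1 counts were 3.33 times those of FADS2 in 2D-primed cells and 1.17 times in 3D-primed cells, on counts not corrected for length (difference of log2 ratio -1.52, exact permutation test, p = 0.029, adjusted p = 0.036). FADS3, a paralog of both genes, had 8.38, 9.51, 7.94 and 8.73 CPM against 9.17, 10.1, 9.10 and 9.81. Its groups overlapped and it was not called (log2 fold change 0.14, SE 0.0761, edgeR adjusted p = 0.13), except with upper quartile scaling (edgeR, adjusted p = 0.044). The 3 genes lie close together on chromosome 11 between 61792980 and 61892051 of GRCh38, with FADS2 (ENSG00000134824) on the plus strand and FADS1 (ENSG00000149485) and FADS3 (ENSG00000221968) on the minus strand. The span of FADS1 (61799627 to 61829318) lies within that of FADS2 (61792980 to 61867354). Exons of FADS1 and FADS2 overlap on opposite strands. SCD (ENSG00000099194), which places the double bond in oleate and palmitoleate, had the highest mean CPM of all members over the 8 libraries, not corrected for length, at 1435, 1528, 1300.4 and 1417 in 2D-primed and 3388, 3210.4, 3550 and 3149 in 3D-primed libraries (log2 fold change 1.23, SE 0.0563, edgeR adjusted p = 7.8e-08). Its paralog SCD5 had 0 to 7 counts per library, so that HepG2 cells of either group had almost all of their stearoyl-CoA desaturase counts from SCD.

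**Figure D2:**
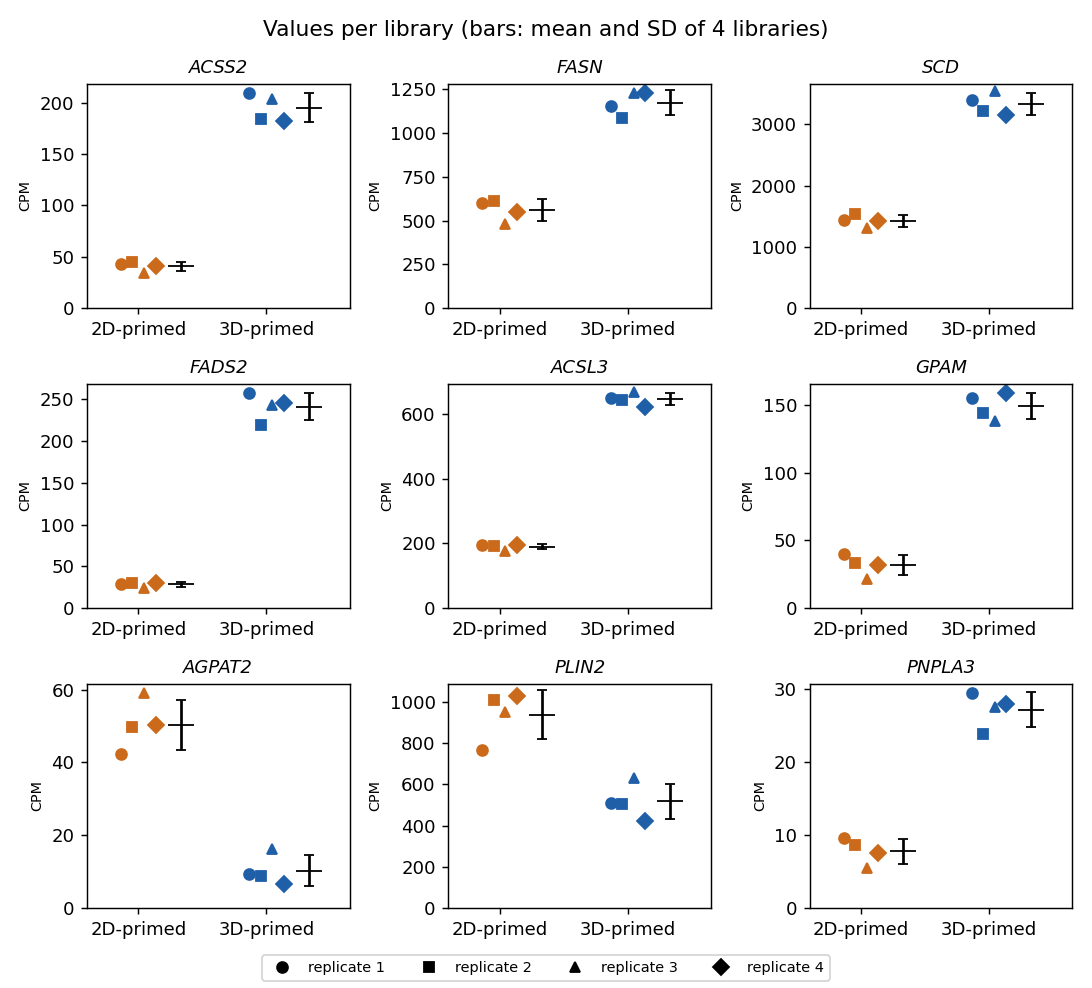
CPM of 9 members in each library (y axes start at 0, marker shape gives the replicate number, black bars the mean and SD of 4 libraries). In ACSS2, FASN, SCD, FADS2, ACSL3, GPAM and PNPLA3 every 3D-primed library lies above every 2D-primed library, and in AGPAT2 and PLIN2 every one lies below.

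The acyl-CoA synthetases, which activate fatty acids for further use, split into 3 genes that rose and 1 that fell. ACSL3, found on the endoplasmic reticulum and on forming droplets, had 194, 193, 177 and 196 CPM in 2D-primed and 648, 645, 669.8 and 623 CPM in 3D-primed libraries (log2 fold change 1.77, SE 0.0444, edgeR adjusted p = 4.7e-09). ACSL4, which prefers arachidonate, had 457, 448, 415 and 438 CPM against 865, 799, 851 and 791 (log2 fold change 0.91, SE 0.0460, edgeR adjusted p = 1.3e-07). ACSL1, the major form of liver, had 26.0, 27.9, 27.0 and 24.7 CPM against 41.2, 42.4, 42.2 and 45.4 (log2 fold change 0.70, SE 0.0499, edgeR adjusted p = 1.1e-06). In contrast, ACSL5, which is found at mitochondria and the endoplasmic reticulum, had 176, 192, 206 and 189 CPM against 108, 119, 124 and 118 and fell by 0.70 on the log2 scale (SE 0.0569, edgeR adjusted p = 2.5e-06). The groups did not overlap in any of the 4 genes. The ratio of ACSL4 to ACSL5 rose from 2.31 to 7.05 and that of ACSL1 to ACSL3 fell from 0.14 to 0.07 (exact permutation test, p = 0.029 and adjusted p = 0.036 for each).

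Triglyceride assembly had members in both directions, with 5 higher and 3 lower of 8. For the first acylation of glycerol phosphate, GPAM had 39.6, 33.3, 21.6 and 32.2 CPM in 2D-primed and 155, 144, 138 and 159 CPM in 3D-primed libraries, a 4.72-fold difference (log2 fold change 2.24, SE 0.143, edgeR adjusted p = 5.2e-07). For the second acylation, AGPAT2 had 42.2, 49.8, 59.0 and 50.3 CPM against 9.28, 8.68, 16.3 and 6.59. AGPAT2 was thus 4.89-fold lower in 3D-primed cells, the largest decrease among the members (log2 fold change -2.29, SE 0.224, edgeR adjusted p = 8.9e-06). Replicate 3 was the highest of its group on both sides, and leaving out each library in turn gave log2 fold changes of -2.63 to -2.13. Its paralog AGPAT3 rose from 59.0 ± 6.23 to 73.5 ± 2.77 CPM (SD, n = 4, log2 fold change 0.32, edgeR adjusted p = 0.0024), and AGPAT2 counts went from 0.85 to 0.13 times those of AGPAT3 (difference of log2 ratio -2.69, exact permutation test, p = 0.029, adjusted p = 0.036). Among tested non-members of these acylations, AGPAT1 rose from a mean of 99.97 to 117.3 CPM (log2 fold change 0.23, edgeR adjusted p = 0.0016). AGPAT5 was not called (-0.04), while GPAT4 (-0.28) and GPAT3 (-1.57) were lower in 3D-primed cells.

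The lipins, which remove the phosphate from phosphatidic acid, changed in opposite directions. LPIN2, the member of the assembly step with the highest mean CPM over the 8 libraries, had 168, 176, 182 and 185 CPM in 2D-primed and 106, 111, 127 and 109.8 CPM in 3D-primed libraries (log2 fold change -0.65, SE 0.0589, edgeR adjusted p = 5.4e-06). LPIN3 had 16.5, 12.4, 14.6 and 13.9 CPM against 8.00, 8.37, 13.2 and 12.0 (log2 fold change -0.47, SE 0.160, edgeR adjusted p = 0.026). The groups of LPIN3 overlapped, as 3D-primed replicate 3 lay above 2D-primed replicate 2, and the call was lost in 4 of 18 alternatives (edgeR and the other tools, adjusted p from 0.0053 to 0.074). These were the fits without 2D-primed replicate 1 (-0.39) or 3 (-0.46), or without 3D-primed replicate 1 (-0.36) or 2 (-0.38). LPIN1 rose from 21.4 ± 0.602 to 33.1 ± 3.52 CPM (SD, n = 4, log2 fold change 0.63, edgeR adjusted p = 2.9e-05), and its counts went from 0.12 to 0.29 times those of LPIN2 (exact permutation test, p = 0.029, adjusted p = 0.036). The final acylation is carried out by DGAT1 and DGAT2, which are unrelated in sequence, and both were upregulated. DGAT2 rose from 22.8 ± 2.86 to 56.6 ± 7.59 CPM (log2 fold change 1.31, edgeR adjusted p = 3.0e-06) and DGAT1 from 35.2 ± 2.95 to 66.5 ± 8.43 CPM (log2 fold change 0.92, edgeR adjusted p = 1.1e-05). The ratio of DGAT1 to DGAT2 fell from 1.55 to 1.18 (exact permutation test, p = 0.029, adjusted p = 0.036).

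The droplet coat was the only step with more genes lower than higher. PLIN2, the main coat protein of liver droplets, had 768, 1007, 949 and 1029.6 CPM in 2D-primed and 511, 504, 632 and 422 CPM in 3D-primed libraries (log2 fold change -0.86, SE 0.122, edgeR adjusted p = 1.3e-04). PLIN3, a coat protein that exchanges with the cytosol, had 117, 121, 133 and 124 CPM against 84.5, 78.8, 81.0 and 81.2 (log2 fold change -0.61, SE 0.0461, edgeR adjusted p = 1.6e-06). In neither gene did the groups overlap, although the spread of PLIN2 was wide within both. Their ratio was 7.53 in 2D-primed cells, against 6.29 in 3D-primed cells (difference of log2 ratio -0.26, exact permutation test, p = 0.14, adjusted p = 0.17). PLIN5, which links droplets to mitochondria in oxidative tissues, rose from a very low level, with 0.916, 1.17, 0.529 and 0.675 CPM against 1.70, 2.17, 2.90 and 2.34 (log2 fold change 1.47, SE 0.269, edgeR adjusted p = 7.3e-04). This rested on 13 to 81 counts per library. CIDEB, which acts in lipid loading of lipoproteins and in droplet fusion in hepatocytes, had 93.9, 91.8, 99.8 and 100.1 CPM against 99.8, 91.2, 94.8 and 99.1, and these overlapping groups were not called (log2 fold change -0.00, SE 0.0452, edgeR adjusted p = 0.96).

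The 2 lipolysis members, which are paralogs, moved apart. PNPLA2, the adipose triglyceride lipase, had 130.4, 134, 136 and 129 CPM in 2D-primed and 113, 107, 109 and 117 CPM in 3D-primed libraries, a small decrease with no overlap (log2 fold change -0.24, SE 0.0390, edgeR adjusted p = 3.0e-04). PNPLA3, whose product sits on droplets and whose gene is a known target of SREBP-1, had 9.53, 8.56, 5.49 and 7.47 CPM against 29.4, 23.9, 27.5 and 27.9 (log2 fold change 1.81, SE 0.139, edgeR adjusted p = 1.8e-06). PNPLA2 counts were 17.3 times those of PNPLA3 in 2D-primed cells and 4.11 times in 3D-primed cells (difference of log2 ratio -2.07, exact permutation test, p = 0.029, adjusted p = 0.036).

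**Figure D3:**
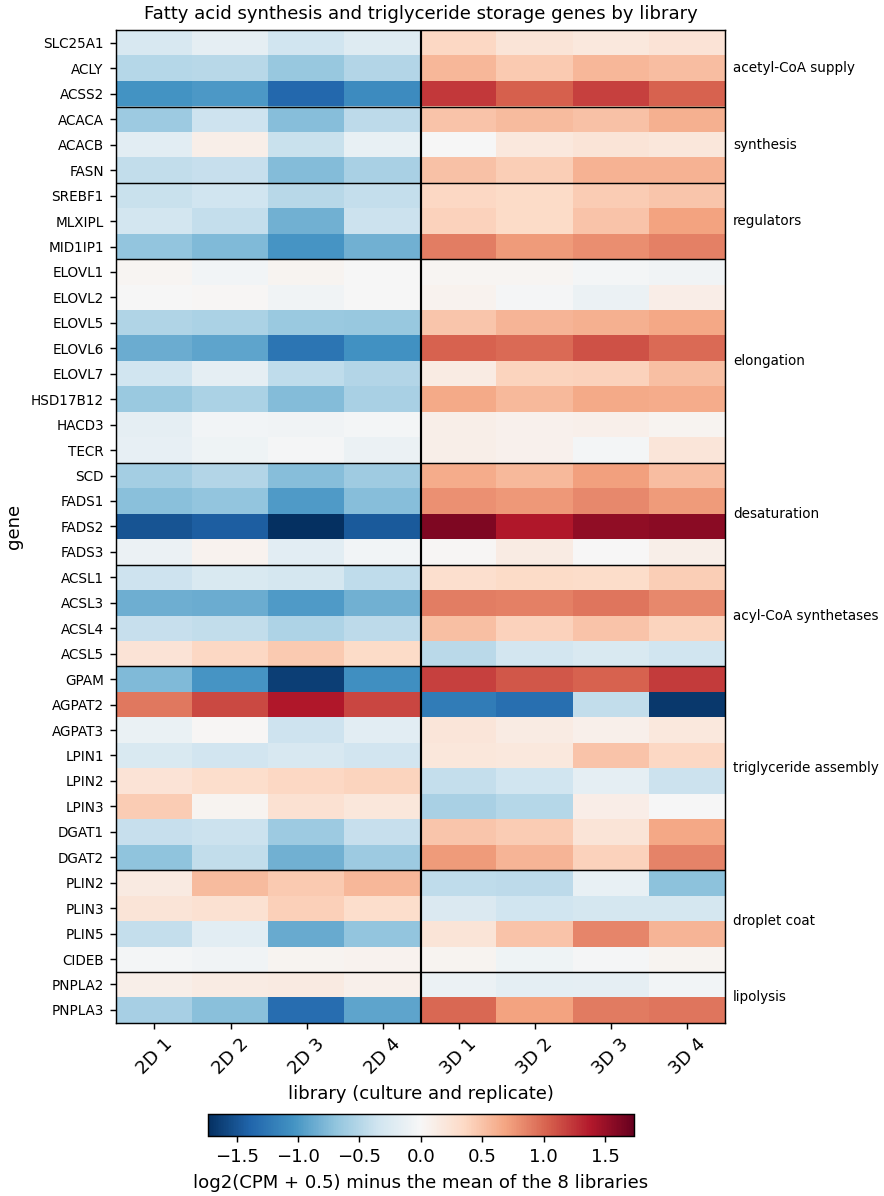
Log2(CPM + 0.5) of each tested member in each library, minus the mean of the 8 libraries (colour, red above and blue below the mean), with members ordered by step. The left 4 columns are 2D-primed and the right 4 are 3D-primed libraries, and 2D 3 is the darkest blue of its group in many rows. Over all steps, it was the lowest 2D-primed library for 22 of the 28 members called higher.

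Across the 14 gene pairs formed within steps, or between regulators, 11 had ratios that did not overlap between the groups (exact permutation test, adjusted p = 0.036 for each). Single genes had groups that did not overlap in 59.8% of all genes tested. How often ratios of pairs outside these 14 separate was not tested. The 3 of the 14 pairs that overlapped were SREBF1 to MLXIPL, PLIN2 to PLIN3, and SCD to SCD5. The last has no usable ratio because of the 0 to 7 counts of SCD5.

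**Figure D4:**
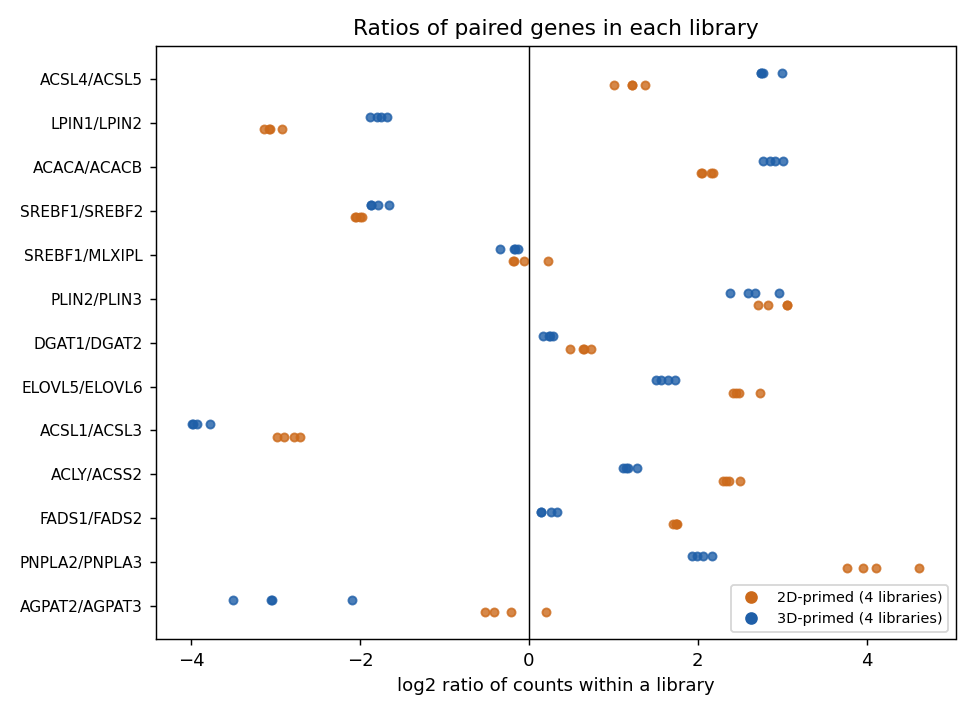
Log2 ratio of the counts of paired genes in each library (x axis) for 13 of the 14 pairs, without SCD to SCD5, with 2D-primed libraries in orange and 3D-primed libraries in blue. The 2 colours do not overlap in 11 pairs and overlap in SREBF1/MLXIPL and PLIN2/PLIN3.

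CPM and ratios of counts do not allow for transcript length, so levels of different genes were ordered by the mean CPM divided by the length of the canonical transcript in kilobases. On this scale PLIN2 was the first member in 2D-primed cells, at 495 CPM per kilobase, followed by SCD at 271. In 3D-primed cells SCD was first, at 634, and PLIN2 second, at 273. ACSL4 had rank 3 in both groups, at 89.8 and 169 CPM per kilobase. FADS2 moved from rank 26 to rank 10 and ACSL3 from rank 14 to rank 6 of the 39 members, whereas AGPAT2 moved from rank 15 to rank 32. The lowest level in both groups was that of PLIN5, at 0.333 and 0.922 CPM per kilobase. These ranks describe order and were not tested.

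Genes around the pathway that are not members were counted in 6 further lists, to be read beside the 32.4% of all genes called higher and the 31.6% called lower. Of 10 tested genes of SREBP processing and sterol sensing, 4 were higher and 6 lower (40.0% and 60.0%, median log2 fold change -0.46), among the latter INSIG2 (-0.77), which retains SREBP in the endoplasmic reticulum, and SCAP (-0.46), which escorts it out. The 3 with the smallest p were NR1H3, the gene of LXR-alpha (log2 fold change 0.64), SREBF2 (0.59) and the protease gene MBTPS2 (0.40). INSIG1, with 0 to 6 counts per library, was below the filter, and it was not tested whether its reads lie on identifiers that are not in the annotation used. Of 9 tested genes of fatty acid uptake and binding, 6 were higher and 3 lower, led by the binding protein genes FABP1 (1.88) and DBI (1.11) and the transporter SLC27A2 (1.03). Other acyl chain enzymes had 5 of 8 higher and none lower (ACSS3 1.40, ACSL6 1.36, HACD1 0.62), and mitochondrial fatty acid synthesis had 4 of 6 higher and none lower (CBR4 1.16, OXSM 0.56, MCAT 0.26). Other triglyceride assembly genes had 3 of 7 higher and 3 lower (GPAT3 -1.57, MOGAT2 0.75, MOGAT3 0.34), and other droplet and lipase genes had 3 of 10 higher and 2 lower (LIPA 0.71, HILPDA -1.66, ABHD5 -0.67).

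Next to the pathways with which it shares acetyl-CoA, the median log2 fold change of the 39 members (0.82) lay between that of 21 cholesterol synthesis genes (1.76, with 20 higher and 1 lower, FDFT1) and that of 21 fatty acid oxidation genes (0.34, with 14 higher, 5 lower and 2 not called). The 3 genes with the smallest p were SC5D (1.73), CYP51A1 (1.96) and HSD17B7 (2.10) in cholesterol synthesis, and EHHADH (0.93), ACADM (0.70) and ACADVL (-0.62) in oxidation. FDFT1 averaged 21.2 CPM over 2D-primed libraries, against 15.1 over 3D-primed libraries, and whether part of its reads lie on identifiers that are not in the annotation used was not tested. The differences between these lists were not tested. The library 2D-primed replicate 3 was also the lowest 2D-primed library in 19 of the 21 cholesterol synthesis genes.

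Some members share sequence or position with other genes, and strand was not stated for the counting. Exons of FADS1 and FADS2, SREBF1 and RAI1, TECR and DNAJB1, CIDEB and NOP9, DGAT1 and HSF1, and ACSL5 and ZDHHC6 overlap on opposite strands, and those of PNPLA3 and SAMM50 and of FADS2 and FEN1 on the same strand. The counts of these pairs, and of close paralogs, depend on how reads were divided among transcripts. A further 3055 identifiers, with 2.38 to 2.57% of the counts of a library, were absent from the annotation used for symbols, and reads of a gene with a second copy among them would be missing from its value.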

How the data were processed

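Poly(A) RNA of 8 libraries of HepG2 cells was sequenced in read pairs from directional libraries. The authors deposited estimated counts per gene for each library, which Salmon had estimated per transcript on human cDNA of GRCh38 and tximport had added up per gene. The values are whole numbers and are not scaled to depth. The tximport setting for transcript length is not given in the sources used here, so the counts were used as deposited. Replicates of a group differed beyond counting noise (chi-square per degree of freedom 6.07 to 16.4), and total counts of 21599630 to 27844077 per library make counting error small for all but the lowest members.

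Identifiers were matched to GENCODE symbols of GRCh38 (34977 of 38032). A gene was kept at 10 or more counts in 2 or more libraries, as in the study's methods. Counts were scaled by TMM and tested with glmQLFit and glmQLFTest of edgeR 4.0.16 in R 4.3.3, with a Benjamini-Hochberg adjusted p threshold of 0.05 and a biological coefficient of variation of 0.0934. Standard errors are the log2 fold change divided by the square root of F. Ratios within a library used counts plus 0.5 and a two-sided exact permutation test (scipy 1.17.1).

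The members and lists were chosen with earlier results of these data known. In each step, values per library are given for the tested member with the highest mean CPM over the 8 libraries, the 2 with the largest log2 fold change and any called against the step's more frequent direction, and steps of 4 or fewer tested members are given whole. Of other lists, the 3 genes with the smallest p are named. INSIG1, INSIG2, SCAP, FDFT1, AGPAT1, AGPAT5, GPAT4 and the single cell type markers were named after their values were seen. Alternatives were DESeq2 1.42.0, limma-voom (limma 3.58.1), median-of-ratios size factors, total counts, upper quartile, no filter, filterByExpr, 10 counts in all libraries, each library left out, the replicate number as a block, and a pseudocount of 5 for ratios. Leaving out replicate 3 of both groups was added after the data were seen. Human liver, primary hepatocytes and protein, secretion and toxicity assays are not analysed here.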

Additional observations from a re-analysis of the deposited data

Results flagged for a closer look

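In 4 of the 78 groups of 4 libraries (39 members in 2 groups), 1 library lay far from the rest by Dixon's criterion, where chance gives about 1 group in 20. Of these values, 3 belong to 2D-primed replicate 3. ACLY was at 193 CPM there against 214 to 218 in the rest of its group, ACSL3 at 177 against 193 to 196, and DGAT1 at 30.8 against 36.2 to 37.3. The fourth was HSD17B12 in 3D-primed replicate 2, at 154 CPM against 163 to 165. All 4 genes were called higher in 3D-primed cells with and without 2D-primed replicate 3, and the part of these libraries in the other members was not tested beyond leaving them out.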

How the results depend on the processing

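Over the 18 alternatives, 8357 to 9070 genes were called (8413 with DESeq2), 27 to 29 members were higher and 6 to 7 lower, and the median log2 fold change of the members was 0.77 to 0.87. Leaving out each library in turn gave 8357 to 8875 genes, 27 to 28 and 6 to 7 members, and medians of 0.79 to 0.84. Higher genes made up 49.0 to 56.2% of calls (50.6% as reported), highest with upper quartile scaling. Without both replicates 3, 27 members were higher and 7 lower, with a median of 0.77. Only members near 0 changed sign. ELOVL1 was at 0.0173 with total counts, 0.0398 with upper quartile scaling, 9.3e-04 without both replicates 3 and -0.0315 to 0.0101 without single libraries. CIDEB was at 0.0247 with total counts, 0.0469 with upper quartile scaling, 0.0024 without a filter, 0.0106 without both replicates 3 and -0.0271 to 0.0154 without single libraries. ELOVL2 was at -0.0091 to 0.0555 without single libraries. The log2 fold change of ACACB without both replicates 3 was 0.19 (edgeR, adjusted p = 0.11), and the causes were not tested. With 5 in place of 0.5 added to counts, the SCD to SCD5 ratio passed the threshold (1.28; exact permutation test, adjusted p = 0.033), which rests on the 0 to 7 counts of SCD5. Same-numbered libraries did not deviate together (r from -0.04 to 0.06, 1 of 4 closest to its own number), so the numbers were not taken as pairs. With the replicate number as a block, 8490 genes, 28 members higher and 7 lower were called, and 0 gene pairs passed, since the smallest p of 4 pairs is 0.125.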
